A study of Mus musculus with 2 samples.

Results

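The genes described here encode proteins that carry out or steer pre-mRNA splicing, read in B16F10 cells, a mouse melanoma line. They are the genes whose symbols begin with Srsf, Hnrnp, Snrp, Sf3a or Sf3b, or Prpf (followed by a digit where the family is numbered). They number 61 of the 19505 named genes on the array. The families were chosen with earlier results of these data known. The 5 families hold 10 SR protein genes, 19 hnRNP genes, 11 snRNP protein genes, 9 SF3 genes and 12 PRPF genes. One group of cells had been transfected with a plasmid for NRF3 and the other with a plasmid for GFP, each together with a puromycin resistance vector, and both were selected with puromycin. Both then received forskolin, which raises cellular cAMP, for 5 days, so forskolin is shared by the groups and its effect is not measured here. The labels name neither clones nor separate cultures. With 1 array per group and no replicates, no error, interval or p-value can be attached to any difference, and all of them describe these 2 RNA samples. "Higher" and "lower" always mean the NRF3 array against the GFP array.

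Introns are removed by the spliceosome, which is built on each transcript from small nuclear ribonucleoproteins (snRNPs) and many accessory proteins. U1 marks the 5′ splice site and U2, with its SF3a and SF3b subcomplexes, the branch point. The U4/U6.U5 tri-snRNP then joins, and the particle is rearranged and activated. SR proteins bind exons and favour their recognition, while hnRNPs coat nascent RNA and often oppose it, so their balance shapes alternative exons. Many SR protein and hnRNP genes limit their own mRNA through exons that send it to nonsense-mediated decay. An array value per gene sums over such isoforms, and isoforms cannot be told apart in these data.

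Each value is a log2 expression value per probe set on the scale of the robust multi-array average (RMA), and every fold is a fold on that scale. Each member had 1 probe set. Genes count as detected if at least 1 of the 2 values is 5.89 or more, the median over named probe sets. This level was reached by 59 of the 61 members and 10162 of all named genes. It lies below the medians of the control rows named neg, 6.12 for GFP and 6.37 for NRF3. A detected gene may therefore still be at background. The upper quartiles of the 5222 control rows named neg, 7.52 for GFP and 7.85 for NRF3, give a stricter mark of background, and 56 members lay at or above it on both arrays. Nfe2l3, the gene of NRF3, had a log2 value of 6.04 in GFP cells and 10.1 in NRF3 cells. All 7 melanocyte lineage markers examined were detected, while none of 5 leukocyte, 7 fibroblast and endothelial or 6 epithelial markers was. In RNA from whole cultures, fewer cells of a kind and less RNA per cell cannot be told apart. The melanocyte markers differed by a median of 0.05, from -0.56 for Mlana to 1.41 for Tyr.

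Most splicing genes were lower in the NRF3 cells, most of them by less than 1.5-fold. Of the 59 detected members, 49 (83.1%) had a difference below 0, against 54.2% of all detected genes. The median log2 difference of the members was -0.39, with quartiles of -0.71 and -0.12, and that of all detected genes was -0.07. At least 1.5-fold lower values were found for 19 members (32.2%), against 23.6% of all detected genes, and at least 1.5-fold higher values for 3 members (5.08%), against 17.0%. At 2-fold the counts were 7 members lower, against 11.0% of all detected genes, and 2 higher, against 6.75%. After quantile normalization 17 members (28.8%) were at least 1.5-fold lower, against 19.9% of all detected genes, and 4 (6.78%) higher, against 20.9%. At 2-fold 8.95% of all detected genes were then lower and 8.62% higher, while the member counts stayed at 7 and 2. The members thus stood out by how many lay a little below 0 and by how few lay above it, not by large differences.

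Genes of like signal level gave nearly the same background. Between the quartiles of the members, mean log2 values of 10.1 and 13.1, lay 3065 detected genes. Of these, 54.1% lay below 0, 22.2% were 1.5-fold lower and 18.0% were 1.5-fold higher. Genes of dividing cells were lower as well. All 12 detected ones of the list lay below 0, 10 were at least 1.5-fold lower, and their median was -1.16, with Top2a at -1.91 and Pcna at -0.21. Their part in the differences of the splicing genes was not tested.

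**Figure D1:**
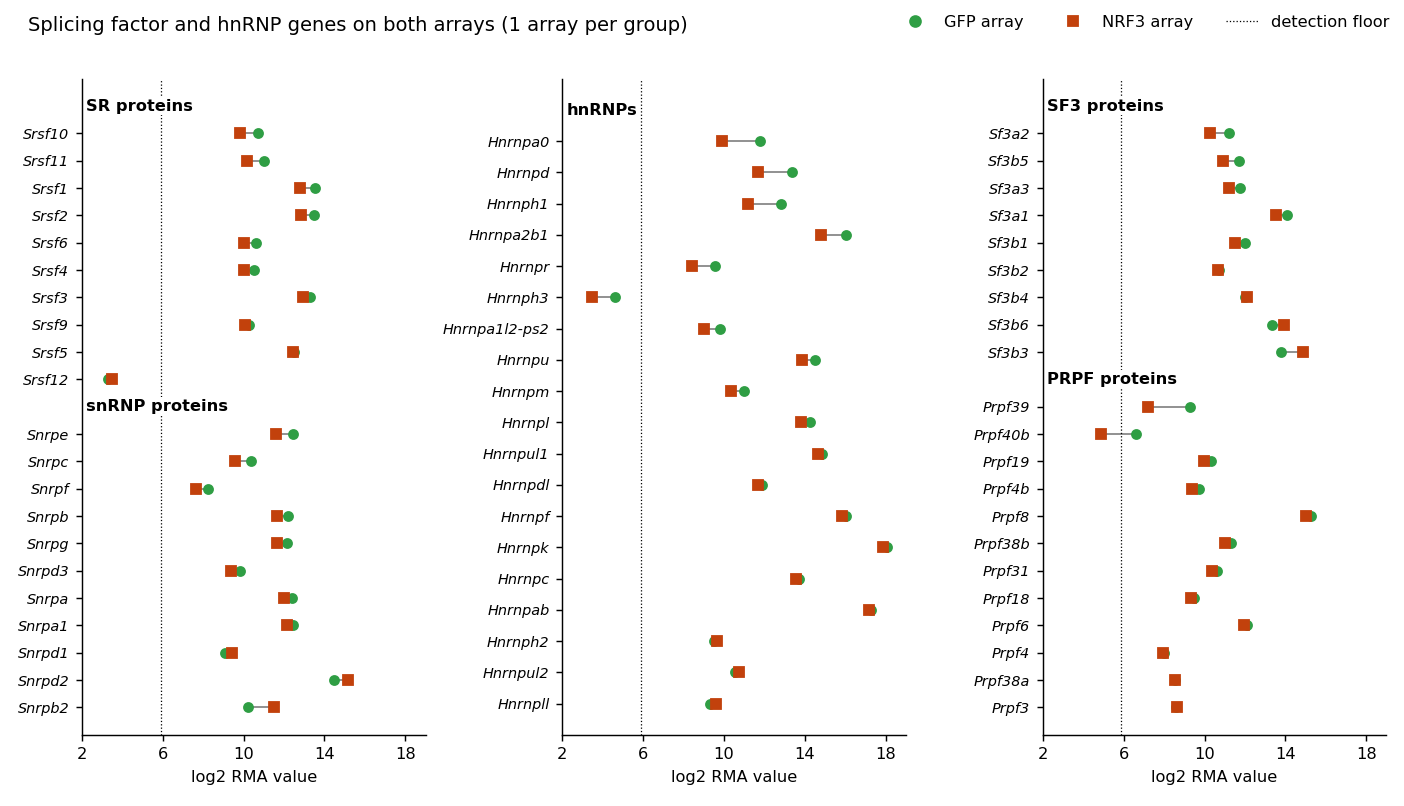
Log2 RMA values of all 61 members on the GFP array (circles) and the NRF3 array (squares), by family and ordered by difference, with the detection floor of 5.89 as a dotted line. Squares lie to the left of circles in 49 of the 59 detected members, and Hnrnph3 and Srsf12 lie left of the floor on both arrays.

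**Figure D2:**
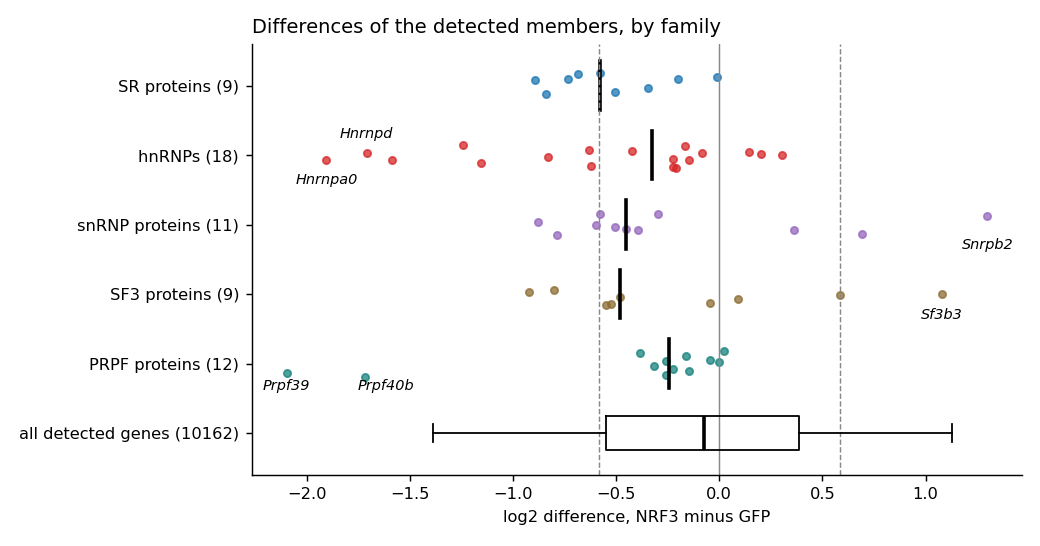
Log2 difference, NRF3 minus GFP, of each detected member (points, spread vertically for legibility) with the family median as a black bar, over a box plot of all detected genes (box, quartiles; whiskers, 5th and 95th percentiles). Dashed lines mark 1.5-fold; the 5 family medians lie between -0.58 and -0.24, while the median of all detected genes is -0.07.

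The lowest members were Prpf39 and Hnrnpa0 and the highest Snrpb2 and Sf3b3. Prpf39, whose yeast counterpart is a stable part of U1, had log2 values of 9.30 with GFP and 7.20 with NRF3, a difference of -2.10. The latter is below the stricter background mark of 7.85, so how large this difference is may depend on background. Hnrnpa0, of the A/B group that coats nascent transcripts, lay at 11.8 and 9.89, a difference of -1.90 or 3.74-fold. Snrpb2, a U2 protein that binds U2 snRNA, was the highest member, from 10.2 to 11.5, a difference of 1.30 or 2.46-fold. Sf3b3, a scaffold of SF3b, lay at 13.8 and 14.9, a difference of 1.08 or 2.11-fold. Sf3b3 is on chromosome 8, where the 549 detected genes had a median difference of 0.56, and the part of that shift in its value was not tested.

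The promoters of these 4 genes are shown because the members at both ends of the range would be the place to look for shared regulatory letters. Each is the 250 bases before the start site, from RefSeq on GRCm38.p6, with matches in capitals to any of 4 motifs searched on both strands. These were TGANNNNGC, the core of the antioxidant response element bound by NRF3 and its relatives, CACGTG, the E-box bound by MYC and MITF among others, TGACGTCA, the cAMP response element, and CCGGAAG, a core bound by ETS factors. Prpf39 is on the plus strand at chr12:65036084-65036333, Hnrnpa0 on the minus strand at chr13:58128557-58128806, Snrpb2 on the plus strand at chr2:143062819-143063068 and Sf3b3 on the minus strand at chr8:110846804-110847053. All are written 5′ to 3′ along the gene.
Prpf39: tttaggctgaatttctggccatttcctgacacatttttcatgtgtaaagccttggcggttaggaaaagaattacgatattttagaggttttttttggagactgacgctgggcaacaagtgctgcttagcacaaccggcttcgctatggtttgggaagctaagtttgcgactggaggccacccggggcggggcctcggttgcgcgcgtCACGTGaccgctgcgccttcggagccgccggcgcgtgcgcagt
Hnrnpa0: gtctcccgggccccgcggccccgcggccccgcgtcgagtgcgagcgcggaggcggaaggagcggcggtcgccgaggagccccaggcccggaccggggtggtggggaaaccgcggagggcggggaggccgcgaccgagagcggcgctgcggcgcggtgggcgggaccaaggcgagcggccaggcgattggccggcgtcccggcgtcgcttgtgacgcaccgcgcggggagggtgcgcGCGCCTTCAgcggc
Snrpb2: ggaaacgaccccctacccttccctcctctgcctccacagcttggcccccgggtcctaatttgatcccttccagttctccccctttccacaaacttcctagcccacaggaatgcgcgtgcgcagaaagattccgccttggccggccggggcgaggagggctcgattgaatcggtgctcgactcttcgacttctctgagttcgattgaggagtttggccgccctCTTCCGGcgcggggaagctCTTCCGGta
Sf3b3: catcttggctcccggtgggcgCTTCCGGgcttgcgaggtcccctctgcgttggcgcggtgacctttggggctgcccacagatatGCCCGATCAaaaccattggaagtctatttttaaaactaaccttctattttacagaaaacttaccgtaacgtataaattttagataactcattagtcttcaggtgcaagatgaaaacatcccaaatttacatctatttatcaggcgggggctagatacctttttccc

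The capitals are an E-box from 43 to 38 bases before the start in Prpf39 and, in Hnrnpa0, a match to the antioxidant response element from 14 to 6 bases before it. Snrpb2 had a pair of ETS matches, the nearer from 9 to 3 bases before the start, and Sf3b3 had an ETS match and a match to the antioxidant response element. A promoter was at hand for 52 of the 59 detected members and 8387 detected genes in all, and 1 start per gene, the outermost of those in the promoter table, was searched. The antioxidant response element letters stood in 21 members (40.4%), against 36.8% of the detected genes, so they were about as common in both. They were in 5 of the 18 lower members with a promoter (27.8%). The ETS letters stood in 16 members (30.8%), against 15.1% of the detected genes and 7.07% of all 27025 promoters. Among the 18 lower members with a promoter, 4 (22.2%) held them. The cAMP response element was in 2 members, Snrpa and Snrpg (3.85%, against 2.73%), and in 0 of the 18 lower ones. Members with the ETS letters had a median difference of -0.45 and the others one of -0.41.

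The E-box was in 4 members (7.69%, against 8.63% of the detected genes), which were Prpf39, Prpf40b, Hnrnpd and Snrpa. Among the members the letters were thus no more common than in the background. They were in 3 of the 18 lower members with a promoter (16.7%). Members with the E-box had a median difference of -1.71 and the others one of -0.37. This contrast rests on 4 genes and was not tested. Snrpa held the E-box at 2 places and differed by -0.39. The 30 bases around each match are set side by side, since the flanking letters show how alike the matches are. They lie at chr12:65036279-65036308 (plus strand), chr15:99295038-99295067 (plus), chr5:99978953-99978982 (minus), chr7:27196327-27196356 and chr7:27196286-27196315 (both minus). The start sites used for Hnrnpd and Prpf40b lie 192 and 165 bases inside the RefSeq records of these genes, so neither is the start of its record. The values of Prpf40b are below the stricter background mark on both arrays, and so is the NRF3 value of Prpf39. A match of letters does not show that a factor binds there.
Prpf39: ggttgcgcgcgtCACGTGaccgctgcgcct
Prpf40b: caggattctgcgCACGTGggggcggggcct
Hnrnpd: gcgctccggagcCACGTGaccgggacgcgc
Snrpa, farther from the start: cctttcccatccCACGTGatagaactcgca
Snrpa, nearer to the start: gctcttgaaggtCACGTGatactggcggaa

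SR protein genes were lower as a family, by small amounts. All 9 detected members lay below 0, against 54.2% of all detected genes. Their median was -0.58, and they ranged from -0.89 for Srsf10 to -0.01 for Srsf5. Of the 9, 4 (44.4%) were at least 1.5-fold lower, against 23.6% of all detected genes. Srsf10, an SR-like protein that represses splicing when it loses its phosphates under heat shock, lay at 10.7 with GFP and 9.83 with NRF3. Srsf11, also SR-like, lay at 11.0 and 10.2, a difference of -0.84. Srsf1, the founding SR protein, which recruits U1 and U2 factors to exons, lay at 13.5 and 12.8, a difference of -0.74. Srsf2, a marker of nuclear speckles, also lay at 13.5 and 12.8, a difference of -0.69. Of the others, Srsf6 at -0.58 was just inside 1.5-fold, Srsf4 lay at -0.51, Srsf3 at -0.34 and Srsf9 at -0.20. Srsf5 lay at 12.47 with GFP and 12.46 with NRF3. Srsf12, at 3.28 and 3.51, was not detected.

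The hnRNP genes ran from -1.90 to 0.30, with none at least 1.5-fold higher. Of 18 detected members 8 (44.4%, against 23.6% of all detected genes) were at least 1.5-fold lower, and 10 lay within 1.5-fold. At 2-fold, 5 of the 18 were lower, against 11.0% of all detected genes. The family median was -0.32. The interquartile range was 0.92, the widest of the 5 families and near the 0.94 of all detected genes. In the A/B and D group, 4 of 6 members were lower. Hnrnpd, also known as AUF1, which binds AU-rich elements and governs mRNA decay, lay at 13.4 with GFP and 11.7 with NRF3, a difference of -1.71 or 3.27-fold. Hnrnpa2b1, which packages transcripts and sorts RNA for transport, lay at 16.04 and 14.8, a difference of -1.24. These 2 genes and Hnrnpa0 were thus all more than 2-fold lower, whereas Hnrnpdl, the close relative of Hnrnpd, differed by -0.22 and Hnrnpab by -0.08. Hnrnpa1l2-ps2, annotated as a pseudogene of the Hnrnpa1 type, differed by -0.83, and its probes may also read related copies, so that value is uncertain.

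Outside that group, Hnrnph1, which binds runs of G and steers alternative exons, lay at 12.8 with GFP and 11.2 with NRF3, a difference of -1.59. Its relatives Hnrnpf and Hnrnph2 differed by -0.21 and 0.15, and Hnrnph3, at 4.61 and 3.49, was not detected. Hnrnpr, an RNA-binding protein of neurons and many other cells, lay at 9.55 and 8.39, a difference of -1.16. The lower side also held Hnrnpu, a nuclear scaffold protein, at -0.63 and Hnrnpm at -0.62, both close to the 1.5-fold line. Hnrnpm fell inside it after each of 3 other scalings and Hnrnpu after median centring. Hnrnpu is on chromosome 1, where the 552 detected genes had a median of -0.51. The remaining hnRNPs lay nearer to 0. Hnrnpl, which binds CA repeats, differed by -0.42, Hnrnpul1 by -0.23, Hnrnpk, which binds runs of C, by -0.17 and Hnrnpc, which binds runs of U, by -0.15. Hnrnpul2 and Hnrnpll were above 0, at 0.20 and 0.30. Hnrnpk and Hnrnpab had values above 16 on both arrays. The interquartile range of differences was 0.69 for the 165 detected genes with a mean above 16 and 0.94 for the 9997 with a mean up to 16, and the part of signal level in the small differences of these genes was not tested.

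**Figure D3:**
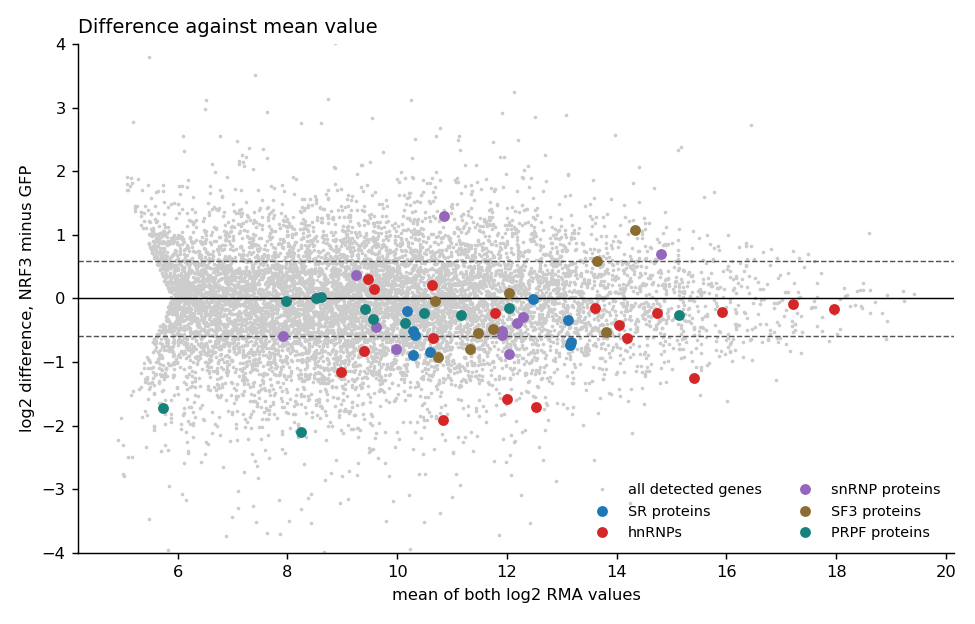
Log2 difference, NRF3 minus GFP, against the mean of both log2 values for all detected genes (grey) and the members (coloured by family), with 1.5-fold as dashed lines; 25 detected genes lie beyond the plotted range of differences. The members lie mostly just below 0 at all levels, with Hnrnpk and Hnrnpab at the bright end near 0 and Prpf40b at the dim end.

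Of the 11 snRNP protein genes, all detected, 3 were at least 1.5-fold lower (27.3%, against 23.6% of all detected genes) and 2 higher (18.2%, against 17.0%), shares near the background. Their median was -0.45. The Sm proteins form the ring that is shared by most of the spliceosomal snRNPs, and their genes did not move together. Snrpe lay at 12.5 with GFP and 11.6 with NRF3, a difference of -0.88, and Snrpf at 8.22 and 7.63, a difference of -0.60. Snrpe is on chromosome 1, and the NRF3 value of Snrpf is below the mark of 7.85. Snrpf also fell inside 1.5-fold after each of the 3 other scalings. Snrpb, at -0.58, Snrpg, at -0.51, and Snrpd3, at -0.45, were lower by less than 1.5-fold. Snrpd2, by contrast, was higher, from 14.5 to 15.1, a difference of 0.69, and Snrpd1 lay at 0.36. The genes of 1 ring thus lay on both sides of 0. Of the U1-specific proteins, Snrpc, which helps U1 to hold the 5′ splice site, differed by -0.79, from 10.4 to 9.58, and Snrpa by -0.39. Of the U2-specific pair, which bind U2 snRNA as partners, Snrpa1 differed by -0.30 against the 1.30 of Snrpb2.

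Of the 9 SF3 genes, all detected, 2 (22.2%, against 23.6% of all detected genes) were at least 1.5-fold lower. In the other direction, 1 (11.1%, against 17.0%) was higher. The family median was -0.48. SF3a and SF3b, the subcomplexes through which U2 holds the branch point, are given separately. The 3 SF3a genes all lay below 0, where 54.2% of all detected genes lay. Sf3a2 differed by -0.92, from 11.2 with GFP to 10.3 with NRF3, Sf3a3 by -0.55 and Sf3a1 by -0.53. The 6 SF3b genes had a median of 0.02 and ranged widely. Sf3b5, a small subunit, lay at 11.7 and 10.9, a difference of -0.80, and Sf3b1, the large subunit mutated in several cancers including uveal melanoma, differed by -0.48. Sf3b1 is the third member on chromosome 1. Sf3b2 and Sf3b4 were within 0.10 of 0, at -0.04 and 0.09. Sf3b6, which contacts the branch point adenosine, lay at 13.4 and 13.9, a difference of 0.58 just inside 1.5-fold and beyond it after each of the 3 other scalings, and Sf3b3 was more than 2-fold higher.

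Of 12 PRPF genes, all detected, 10 lay within 1.5-fold. The other 2 (16.7%, against 23.6% of all detected genes) were lower, and these were the U1-associated pair. Each had at least 1 value below the stricter background mark. The median was -0.24, the nearest to 0 of the 5 families. The mean, at -0.47, was farther from 0 than those of the SF3 and snRNP proteins, -0.17 and -0.19. It takes in Prpf39 at -2.10 and Prpf40b at -1.72, while the other 10 ranged from -0.39 to 0.02. The 5 members of the tri-snRNP ranged only from -0.26 to 0.02. Prpf8, the scaffold of the catalytic centre, lay at 15.3 with GFP and 15.0 with NRF3, Prpf31 differed by -0.23, Prpf6 by -0.15, Prpf4 by -0.04 and Prpf3 by 0.02. The factors of activation and catalysis were similar. Prpf19, the ubiquitin ligase of the complex named after it, differed by -0.39, the kinase gene Prpf4b by -0.32, Prpf38b by -0.26 and Prpf18, which acts in exon ligation, by -0.16. Prpf38a lay at 8.52 on both arrays after rounding. Prpf40b, a homologue of a yeast U1 protein, lay at 6.59 and 4.87, a difference of -1.72. Its GFP value is below the mark of 7.52, and its NRF3 value is below even the median of the neg rows, 6.37, so this difference cannot be sized. Of the U1-associated pair, Prpf39 was the one above the mark in GFP cells.

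Other genes of the pathway or linked to it, taken from 8 lists by function, are described by the same counts. These are to be read against the 23.6% lower and 17.0% higher of all detected genes. Differences between lists were not tested. Of 22 detected U1- and U2-associated genes 7 (31.8%) were at least 1.5-fold lower and 0 higher, with a median of -0.48, Rbm25 lowest at -1.34 and then Luc7l2 at -1.09, and Sugp1 and Snrnp70, the U1 70K protein gene, highest at 0.44 and 0.36. Of 20 tri-snRNP and Lsm genes 8 (40%) were lower and 1 higher, with a median of -0.46, Lsm2 at -1.82, Lsm7 at -1.15, Lsm1 at 1.15 and Sart3 at 0.36. The NRF3 value of Lsm2, 7.23, is below the mark of 7.85, and Sart3 is below the mark on both arrays. Of 31 genes on the list of Prp19 complex and catalytic factors 4 (12.9%) were lower and 6 (19.4%) higher, with a median of 0.16. They ran from Rbm22 at -1.05 and Dhx16 at -0.92 to Bud31 at 0.96 and Dhx38 at 1.497. This list also holds Rnpc3, a minor spliceosome gene, at 0.49, and factors of earlier steps, among them Ik, Smu1 and Mfap1a. Lsm1, Sugp1 and Dhx38 are on chromosome 8. None of the 6 genes on the minor spliceosome list was below 0, against 54.2% of all detected genes. Of the 6, 2 (33.3%) were at least 1.5-fold higher and 0 lower. Their median was 0.20, and Snrnp48 and Pdcd7 were the highest at 1.39 and 1.21, Snrnp25 and Snrnp35 the lowest at 0.01 and 0.05, the latter with both values below the mark.

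Of 26 detected SR-related genes and SR protein kinases 9 (34.6%) were at least 1.5-fold lower and 3 (11.5%) higher, with a median of -0.26. Pnn, of the exon junction, lay at -1.83 and Tra2a, an SR-like activator of exons, at -1.67, while the kinase gene Srpk2 lay at 0.65 and Rsrc1 at 0.63. Of 37 other hnRNP-type genes and regulators 12 (32.4%) were lower and 2 (5.41%) higher, with a median of -0.25. Taf15, an RNA-binding factor associated with TFIID, lay at -1.84 and Cirbp, a cold-inducible RNA-binding protein, at -1.46, while Ptbp3 and Rbm4b lay at 1.26 and 0.78. Of 12 exon junction and nonsense-mediated decay genes 4 (33.3%) were lower and 0 higher, with a median of -0.43, among them Upf2 at -2.08 and Smg6 at -1.16, whose NRF3 values are both below 7.85, and Smg8 and Alyref at 0.45 and 0.44. The 16 SMN complex and snRNP assembly genes, with 4 (25%) lower and 1 (6.25%) higher, had a median of -0.08, close to that of all detected genes. Gemin2 was the lowest at -2.44, from 8.57 with GFP to 6.13 with NRF3, a value below the neg median of 6.37, followed by Gemin6 at -0.87, with an NRF3 value of 7.38 below the mark. Tgs1 and Gemin7 were the highest at 0.59 and 0.58, and the GFP value of Tgs1, 7.47, is below its mark of 7.52.

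**Figure D4:**
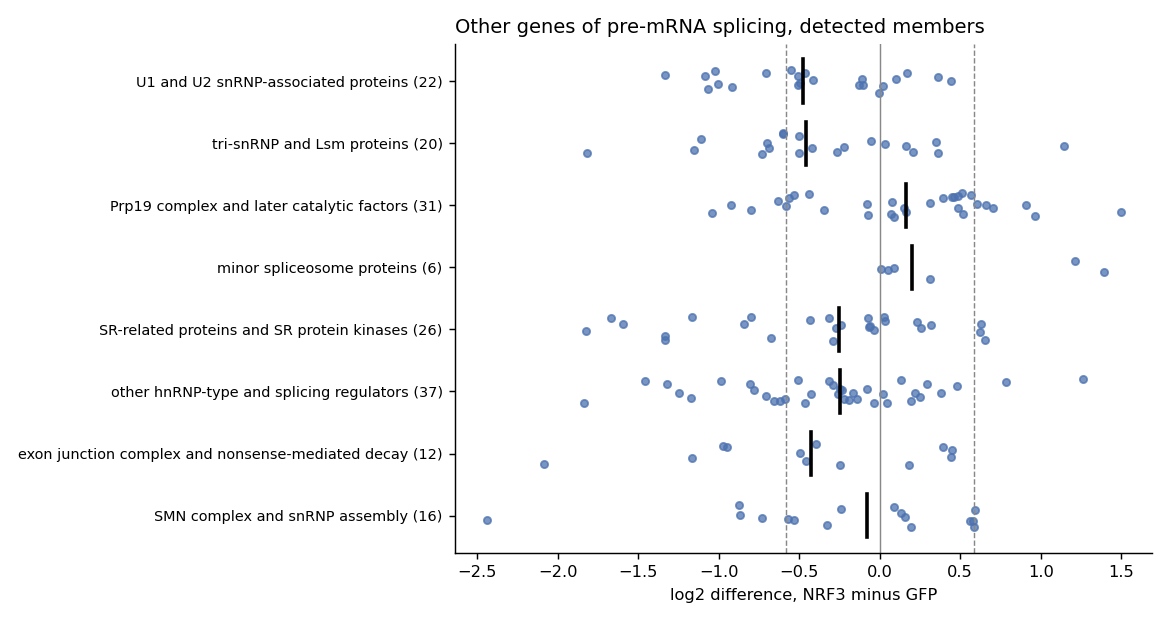
Log2 difference, NRF3 minus GFP, of the detected members of 8 lists of other genes of splicing or linked to it. Points are spread vertically for legibility, and the number of genes is in brackets. Black bars mark the list medians and dashed lines 1.5-fold. The medians lie below 0 for 6 lists and above 0 for the Prp19 complex and the minor spliceosome.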

How the data were processed

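Total RNA of 2 samples, 1 per group, was hybridised to single-colour Affymetrix arrays. The deposited log2 values per probe set were made by the authors with Affymetrix Expression Console and RMA, per the submitters' processing notes. The sources used here give no version, background setting or genome build. RMA scales arrays to each other, so differences are relative to all genes. Array data have no read depth, and their number limits the precision.

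Of 28846 rows, 19572 carried 1 gene symbol in the platform annotation, which left 19505 genes after the brightest probe set was taken for the 55 genes with several. All matched RefSeq (GRCm38.p6) by gene number. The difference of both log2 values was computed with Python 3.11.15 and pandas 2.3.3, without a test, and the counting steps were tested on simulated data. Size rules were 1.5-fold and 2-fold. The members and lists were chosen with earlier results of these data known. Members could all be named. From each list the 2 highest and 2 lowest detected genes were named, with exceptions stated. Alternatives were other floors, size rules (1.25-fold among them) and scalings (median centring, quantile normalization, a lowess trend with span 0.3 from statsmodels 0.14.6), the mean over probe sets, the loss of the farthest member and of chromosomes 1 and 8. A floor from the rows named neg and the loss of values above 16 were added after the data were seen.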

Additional observations from a re-analysis of the deposited data

How the results depend on the processing

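A median was taken to have moved when it changed by 0.1 or more on the log2 scale, and a count when it changed by more than 1.5 times. Of 104 summary values under alternatives, 88 stayed within these limits, 15 moved and 1 changed sign. The median of all 59 members ranged from -0.42 (the mean in its place) to -0.31 (lowess trend subtracted) and stayed below 0 in each alternative run. By the mean in place of the median, the hnRNPs lay at -0.58, the snRNP proteins at -0.19, the SF3 proteins at -0.17 and the PRPF proteins at -0.47. After quantile normalization, which put the median of all detected genes at 0.03, the SR proteins lay at -0.47, the snRNP proteins at -0.35, the tri-snRNP and Lsm list at -0.33, the Prp19 list at 0.32, the minor spliceosome at 0.33, the exon junction list at -0.30 and the SMN list at 0.015, on the other side of 0. Without a floor the SR-related list lay at -0.07, and without values above 16 the hnRNPs at -0.52. At the loosest size rule 31 of the 59 members were lower, against 36.1% of all detected genes, and 5 higher, against 28.2%. At 2-fold 7 were lower, against 11.0%, and 2 higher, against 6.75%. Of the members past 1.5-fold, none changed sign in any alternative, but Hnrnpm and Snrpf fell inside 1.5-fold after each of the 3 scalings and Hnrnpu after median centring, while Sf3b6 passed 1.5-fold after each. No paired analysis was possible because each group has 1 array. With 1 array per group, the spread between cultures is not measured.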

Other observations

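Close relatives differed in several pairs, which were chosen after their values were seen. Tra2a lay at -1.67 and Tra2b, its paralogue with a like RNA-binding domain, at 0.32. Hnrnph1 lay at -1.59 and Hnrnph2 at 0.15. Hnrnpd lay at -1.71 and Hnrnpdl at -0.22, although both are on chromosome 5 with 1 protein-coding gene between them in RefSeq. Ptbp1, the repressor of exons found in most cells, lay at -0.26 and Ptbp3 at 1.26. The 3 LUC7-like genes, whose products join U1, were alike instead, with Luc7l2 at -1.09, Luc7l3 at -1.07 and Luc7l at -0.92. Of the CLK kinases, which phosphorylate SR proteins, Clk1 lay at -1.34, from 9.41 with GFP to 8.07 with NRF3, while Clk4 lay at -0.29 and Clk3 at 0.23. Clk2, at 6.17 and 4.84, was too dim for its difference of -1.34 to be read. Whether separate cultures would show these contrasts was not tested.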
